A study of Mus musculus with 8 samples.

Results

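Libraries of neural stem cells from the mouse subventricular zone (SVZ), coded CV1, CV2, GV1 and GV2, were compared: 4 of the 8 in the series. They were chosen by the code that heads their columns of read counts: both GV libraries were set against both CV libraries. The labels describe cells of control mice (genotype WT) and cells called S1PR1-deficient (S1pr1 deletion), each given ApoM-HDL or ApoM+HDL, with 2 samples for each combination. The code letter C was read as control and G as S1PR1-deficient by elimination, since no label holds the codes, and the preparation that V or H stands for is not given in the sources used here. All 4 libraries share the letter V, and the labels name no promoter or Cre line, no age, and no dose or duration of the lipoprotein. Nothing says that the numbered samples came from separate animals or cultures, so p-values measure the spread between these samples, which may be technical.

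S1PR1 is a receptor on the cell surface that couples to inhibitory G proteins and is activated by the lipid sphingosine-1-phosphate (S1P). Apolipoprotein M (ApoM) binds S1P on high-density lipoprotein (HDL) particles and presents it to such receptors. The SVZ lines the lateral ventricle, and its stem cells give rise to neuroblasts and glia.

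The V libraries held 39657811 to 44356331 counts, and all 8 libraries 39619305 to 45698186. Of 45777 genes in the table, 17644 were tested. Levels are in CPM, counts scaled to a common effective library size, and differences are log2 differences, GV minus CV, with their standard errors (SE). A gene was called at an adjusted p under 0.05 in edgeR's quasi-likelihood test. The 2 libraries of each code differed by more than the sampling noise of their counts, so each was kept as a replicate.

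S1pr1 itself, which should check the reading of the codes, was not lower in the GV libraries. It measured 20.7 CPM in CV1 and 16.0 CPM in CV2, against 22.2 CPM in GV1 and 22.4 CPM in GV2. Both GV libraries were above both CV libraries, by 0.28 on the log2 scale (SE 0.12, adjusted p = 0.0948 in edgeR's quasi-likelihood test; unadjusted 95% interval 0.03 to 0.53). That difference did not pass the test, and the interval holds no decrease. Without CV1 it was 0.48 with an adjusted p of 0.0193, and without CV2 it was 0.11 with an adjusted p of 0.596. The H libraries showed no decrease that passed the test either: the CH pair measured 25.4 and 23.2 CPM and the GH pair 23.2 and 21.2 CPM (log2 difference -0.13, adjusted p = 0.71). The S1pr1 counts thus do not bear out the label of a deletion for the libraries read as S1PR1-deficient, and every direction given here is between libraries coded GV and CV.

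S1pr1 lies on the minus strand of chromosome 3, at 115710433 to 115715072 in the GENCODE annotation of GRCm38. Exon 2 carries the whole coding sequence of 1146 bases and makes up 2682 of the 3046 exonic bases, or 88%. The table gives 1 count for the whole gene, and which part was deleted is not given in the labels. Reads from an undeleted part therefore cannot be told apart from reads of the coding exon.

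The other S1P receptors gave no call. S1pr2, which couples to several G proteins, measured 8.48 and 8.09 CPM in the CV libraries against 6.57 and 7.83 CPM in the GV libraries (log2 difference -0.20, SE 0.15, adjusted p = 0.386). Both GV libraries were below both CV libraries, but the difference did not pass the test. S1pr3 had 4 and 5 counts in the CV libraries and 5 and 10 in the GV libraries, too few to show a difference. S1pr4 and S1pr5 had too few counts to be tested.

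**Figure D1:**
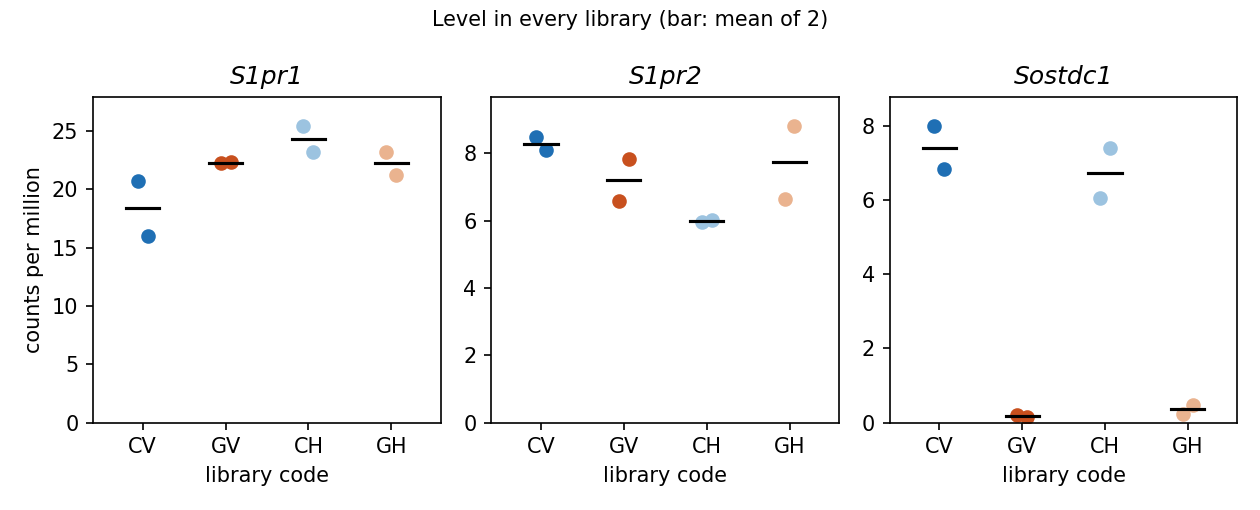
CPM of S1pr1, S1pr2 and Sostdc1 in every library by code (points: libraries; bars: means of 2; axes start at 0). S1pr1 is at 22.2 and 22.4 in the GV libraries, above both CV libraries, while Sostdc1 is under 0.2 in both GV libraries.

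The genes around S1pr1 were checked as well. Of 17 genes tested within 1 Mb, 5 were higher and 1 lower in the GV libraries (35.3% called, against 25.0% of all genes tested), with a median log2 difference of 0.186 (-0.0152 over all genes). Slc35a3, a sugar-nucleotide transporter of the Golgi, was the highest of those called, at 0.52 (adjusted p = 0.00107), and A930005H10Rik was the lower one, at -0.46 (adjusted p = 0.021).

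Many genes differed between the GV and CV libraries. In all, 4408 of the 17644 genes tested (25.0%) were called, 2051 higher (11.6%) and 2357 lower (13.4%) in GV. The same contrast between the GH and CH libraries called 320 genes (1.81%), 134 higher (0.759%) and 186 lower (1.05%), and the difference between the V and H contrasts was itself called for 1296 genes (7.35%). These numbers leaned on single libraries: without CV2, 1950 genes were called between GV and CV and 64 for the difference between contrasts. Without GV1 the 2 counts were 2896 and 750, and without CV1 the difference was called for 586 genes and 1511 genes were lower in GV.

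The direction of the difference followed the base composition of the transcripts. Among protein-coding genes, the decile with the lowest G+C content (31.86 to 41.79%) had a median log2 difference of 0.358, with 770 of 1352 genes higher and 16 lower. The decile with the highest G+C content had a median of -0.291, with 2 higher and 510 lower. In the H contrast the same medians were 0.0261 and -0.0255. Transcript length went along with it: the shortest decile had a median of -0.262 and the longest 0.0897. Transcript G+C content, weighted by counts, averaged 50.3% in both CV libraries and 49.04 and 49.17% in the GV libraries. The part of base composition in any single gene's difference was not tested.

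The middle 90 coding bases of 6 called genes are shown because they make this contrast visible. They are the 3 higher genes with the lowest and the 3 lower genes with the highest G+C content of the coding sequence among the genes eligible under a rule chosen after the values were seen. The rule took called protein-coding genes with a mean of at least 20 CPM, a log2 difference of at least 0.5 in size and no overlap between the groups. It left out predicted names, symbols that begin with Hist, mitochondrial genes and those of 1 nuclear chromosome not used here, and it kept 1 gene of those whose symbols share their first 2 letters. These limits removed, for example, the mitochondrial gene ATP8 (higher in GV), whose coding sequence is 32.3% G or C against 35.4% for Zfp944, and H2ac13 (lower), at 70.3% against 69.9% for H3c13. It was the last of 3 rules tried. The 2 earlier rules ranked genes by the whole transcript and showed the first 90 coding bases, and one of them gave Tmed5, a higher gene whose first 90 coding bases are 72.2% G or C although its transcript is 35%. The sequences come from GENCODE transcripts on GRCm38, with G and C in capitals.
Zfp944 (higher in GV): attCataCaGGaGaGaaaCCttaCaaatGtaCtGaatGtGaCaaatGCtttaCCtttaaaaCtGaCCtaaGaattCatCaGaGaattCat
Depdc1a (higher in GV): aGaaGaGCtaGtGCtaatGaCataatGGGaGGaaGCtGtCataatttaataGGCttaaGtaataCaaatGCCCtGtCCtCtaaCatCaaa
Orc4 (higher in GV): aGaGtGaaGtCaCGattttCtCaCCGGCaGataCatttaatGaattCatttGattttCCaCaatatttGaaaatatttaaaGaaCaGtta
Scand1 (lower in GV): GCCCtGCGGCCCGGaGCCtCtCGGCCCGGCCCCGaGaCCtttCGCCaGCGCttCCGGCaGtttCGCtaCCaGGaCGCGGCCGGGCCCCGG
H2ac12 (lower in GV): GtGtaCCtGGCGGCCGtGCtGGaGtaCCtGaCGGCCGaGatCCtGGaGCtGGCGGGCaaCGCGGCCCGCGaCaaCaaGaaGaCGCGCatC
H3c13 (lower in GV): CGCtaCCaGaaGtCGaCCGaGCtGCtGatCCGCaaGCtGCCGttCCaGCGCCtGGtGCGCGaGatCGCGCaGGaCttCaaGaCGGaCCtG
The stretches of the 3 higher genes are 32.2, 36.7 and 28.9% G or C, and those of the 3 lower genes are 77.8, 67.8 and 64.4%. Orc4, a subunit of the origin recognition complex, was 0.59 higher in GV, and Scand1, a SCAN-domain protein, was 0.57 lower (log2 difference -0.57). With the correction described below, Orc4 was at 0.07 (adjusted p = 0.532) and Scand1 at -0.01 (adjusted p = 0.956), and neither passed. Of the other genes shown, H3c13 alone passed with it, at -0.47 (adjusted p = 0.00157).

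Because of this trend, the contrast was also fitted with a smooth trend on transcript G+C content and length removed from each library, an alternative chosen after seeing the data. Of 15837 genes with a transcript, 1991 (12.6%) were then called, 710 higher (4.48%) and 1281 lower (8.09%). The higher genes made up 35.7% of these calls, against 46.5% without the correction. In the uncorrected fits under other settings, this share moved between 45.7 and 54.8%. Of the 4408 genes called without it, 1215 (27.6%) were also called with it in the same direction. The corrected H contrast called 813 genes (5.13%), and the corrected difference between contrasts 491 (3.10%). Values with this correction are called "corrected".

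**Figure D2:**
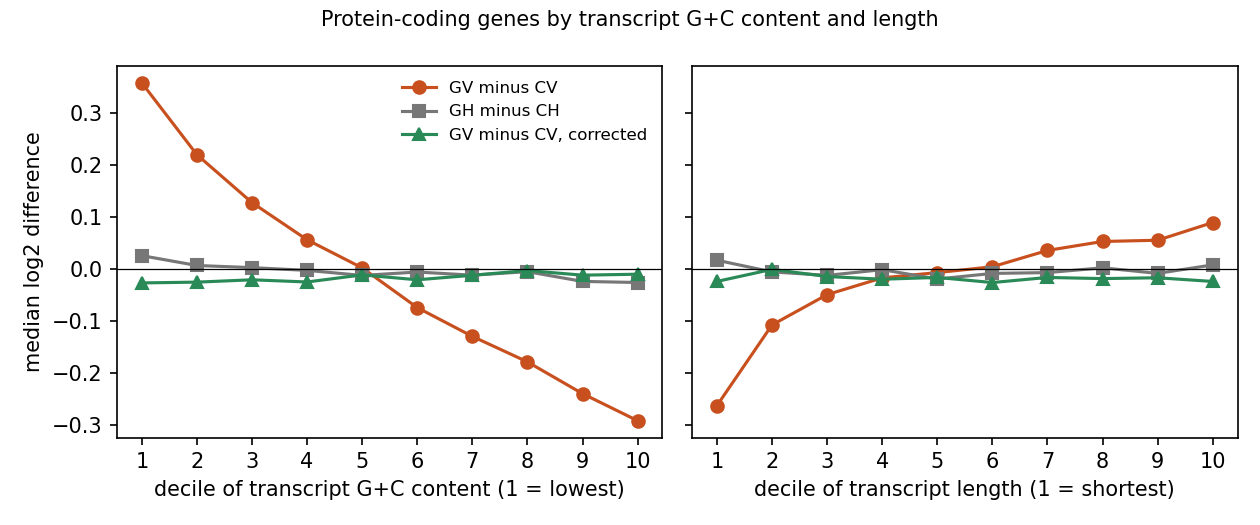
Median log2 difference of protein-coding genes by deciles of transcript G+C content (left) and length (right), for GV minus CV, GH minus CH, and GV minus CV after the correction. The GV line runs from 0.358 to -0.291 across G+C deciles, and the GH line stays between 0.0261 and -0.0255.

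Among the leading genes, which leave out predicted names, the largest difference was that of Sostdc1, a secreted antagonist of BMP and Wnt signalling, which was nearly absent from the GV libraries. It measured 7.99 and 6.83 CPM in CV1 and CV2 against 0.199 and 0.143 CPM in GV1 and GV2, a log2 difference of -5.41 (SE 0.31, adjusted p = 4.19e-06). The corrected difference was -5.51. The GH libraries were low as well, at 0.24 and 0.476 CPM against 6.06 and 7.4 CPM in the CH libraries, and the test of the difference between the V and H contrasts did not pass (adjusted p = 0.159).

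Anxa6, a calcium-dependent membrane-binding annexin, measured 73.6 and 71.9 CPM in the CV libraries and 26.2 and 26.0 CPM in the GV libraries. It fell by 1.48 on the log2 scale (SE 0.07, adjusted p = 6.87e-07), and by more than in the H contrast, where the difference was -1.06 (adjusted p for the difference = 0.0274). Gria4, an AMPA-type glutamate receptor subunit, went from 22.3 and 19.5 CPM to 6.09 and 4.5 CPM (log2 difference -1.98, SE 0.15, adjusted p = 1.78e-05). Casp12, an inflammatory-type caspase, went from 5.19 and 3.83 CPM to 0.927 and 1.62 CPM (log2 difference -1.83, adjusted p = 0.00111). The rule for the leading genes asked for no overlap between the groups, so every GV library was below every CV library for these 3 genes by selection. Gria4 (4417893 to 4796234) and Casp12 (5345442 to 5373034) lie near each other on chromosome 9 in GRCm38.

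Bc1, a short noncoding RNA of neurons, measured 31.2 and 28.1 CPM in the CV libraries against 10.04 and 7.55 CPM in the GV libraries (log2 difference -1.75, SE 0.12, adjusted p = 9.51e-06). Uba1y, the Y-linked copy of the ubiquitin-activating enzyme gene, measured 78.6 and 68.6 CPM against 24.0 and 23.1 CPM (log2 difference -1.64, adjusted p = 5.98e-06). Uba1y has a close X-linked relative, so how its reads were assigned is uncertain. Zic2, a zinc finger factor of forebrain development, had a log2 difference of -1.58 (adjusted p = 0.00246). The remaining leading genes in the lower direction were Snora73a at -1.91, Nlrp5-ps at -1.80, Snora73b at -1.65, H2bu2 at -1.46 and Rps12-ps13 at -1.39. They are pseudogenes, small nucleolar RNAs and a histone gene, whose reads near-identical copies could share.

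The 12 leading genes in the higher direction had smaller differences. Dach2, a nuclear cofactor of the retinal determination network, measured 2.67 and 2.0 CPM in the CV libraries against 5.87 and 6.29 CPM in the GV libraries (log2 difference 1.38, SE 0.18, adjusted p = 0.000398). In the H contrast it was -0.08, and the 2 contrasts differed (adjusted p = 0.0108). Zfp992 and Zfp991, zinc finger genes of a cluster of near-identical copies on chromosome 4, were higher by 1.67 and 1.58. Pak3, a kinase downstream of Rac and Cdc42, measured 21.7 and 19.5 CPM against 41.3 and 40.02 CPM (log2 difference 0.98, adjusted p = 6.98e-05), with a corrected difference of 0.57. Ebf3, a transcription factor of neuronal differentiation, was higher by 1.02 with a corrected difference of 0.99. The others, Znf41-ps, Zfp456, Tmem182, Pcdhga8, Mir703, Tex15 and Zfp983, were higher by 0.99 to 1.38.

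**Figure D3:**
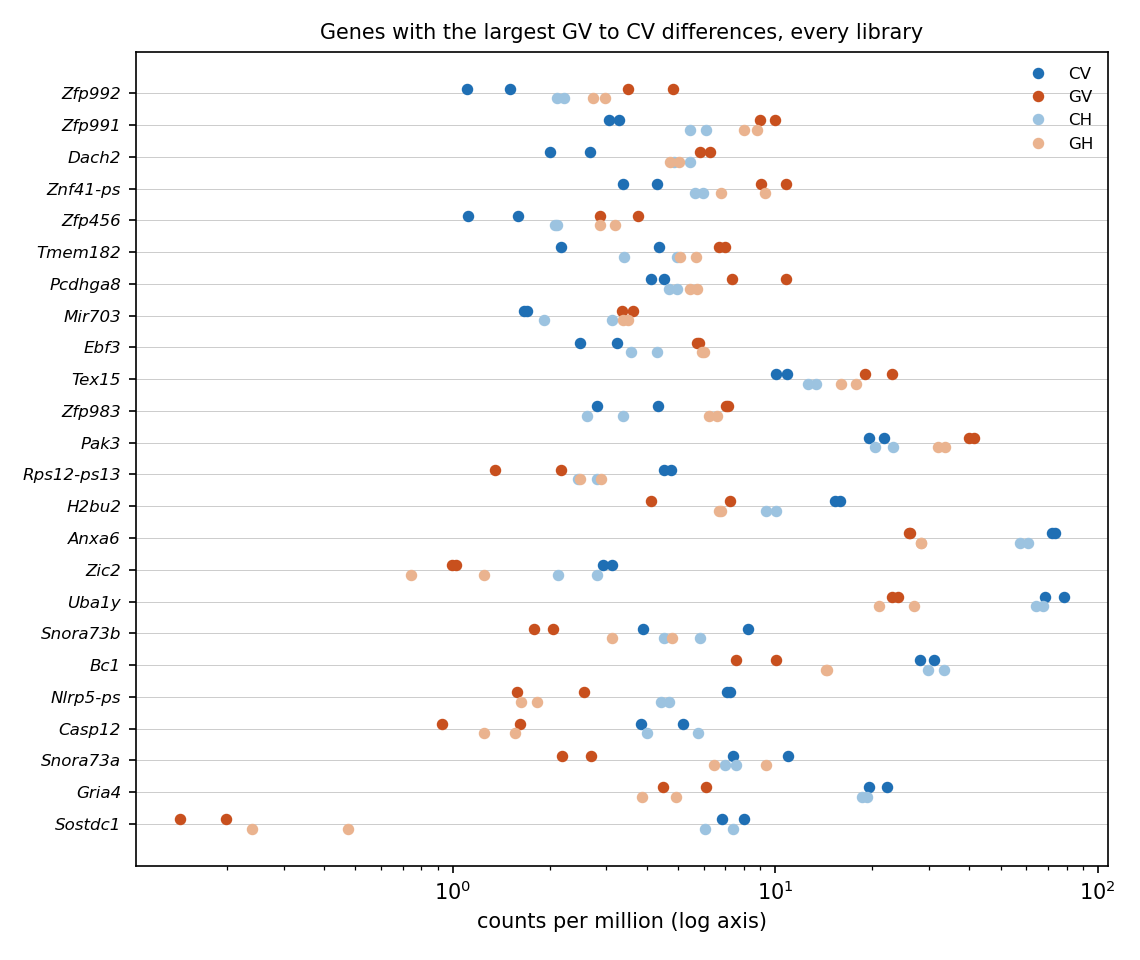
CPM (log axis) of the 24 genes with the largest called differences between GV and CV, 12 in each direction, in every V library (dark) and H library (pale). Sostdc1 stands apart at the bottom, and Anxa6, Gria4, Bc1 and Uba1y are low in GV and in GH.

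A set of genes differed in both genotype contrasts, which share no library but share the reading of the codes. In the same direction, 144 genes were called in both, 61 higher and 83 lower, which is 3.27% of the genes called in V and 45% of those called in H. Another 19 were called in opposite directions. Over all genes tested, 11.6% were called higher and 13.4% lower in V. With the correction, 258 genes were called in both contrasts in the same direction, and 93 of these were among the 144. One of the 144 was Aldh1l1, an astrocyte folate enzyme. It measured 337.7 and 322.5 CPM in the CV libraries against 173.4 and 176.7 CPM in the GV libraries (log2 difference -0.92, SE 0.06, adjusted p = 5.98e-06), and its log2 difference was -0.72 in the H contrast. Gdf15, a stress-induced cytokine, was at -1.25 in V and -0.76 in H. Aldh1l1 was the 1 lower gene of 17 mature astrocyte genes tested, of which 2 were higher. These shares were 5.88% and 11.8%, against 13.4% and 11.6% of all genes. With the correction 4 astrocyte genes were higher and 2 lower, against 4.48% and 8.09% of all genes. In the H contrast 3 were higher and 3 lower, against 0.759% and 1.05% of all genes.

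Of the S1P enzymes and transporters, 5 of 16 tested were higher and 1 lower, against 11.6% and 13.4% of all genes. Sgpp1, a phosphatase that removes the phosphate of S1P, measured 49.0 and 42.9 CPM in the CV libraries against 59.5 and 70.6 CPM in the GV libraries (log2 difference 0.50, SE 0.09, adjusted p = 0.00206; corrected 0.36). Asah1, the acid ceramidase that releases sphingosine, measured 168.9 and 165.7 CPM against 212.3 and 235.0 CPM (log2 difference 0.42, adjusted p = 0.000857; corrected 0.18). The neutral ceramidase Asah2 and the cholesterol exporter Abca1 were higher by 0.54 and 0.34, and Sgpl1, which cleaves S1P, by 0.18. Sphk2, one of the kinases that make S1P, was the lower gene, at -0.34 (adjusted p = 0.0287; corrected -0.12, adjusted p = 0.5). With the correction, 3 were higher and 0 lower. Without CV1, 2 were higher and 0 lower, and without any other single V library 3 were higher.

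Genes of G protein signalling differed in both directions, 6 higher and 8 lower of 27 tested (51.9% called, against 25.0% of all genes), and 2 and 4 with the correction (22.2%, against 12.6%). Gng2, a gamma subunit, measured 21.8 and 21.7 CPM in the CV libraries against 10.7 and 11.1 CPM in the GV libraries (log2 difference -0.99, SE 0.09, adjusted p = 8.74e-05). Gnao1, an alpha subunit of the Gi/o family through which S1PR1 can act, was at -0.80 (adjusted p = 0.000397), and Gnb4, a beta subunit, at 0.64 (adjusted p = 0.000208). Gnai2, another Gi alpha subunit, was at -0.35, and with the correction at -0.15 it did not pass (adjusted p = 0.0629). Without CV2, 1 gene of the list was higher and 5 lower, without CV1 4 and 5, and without GV1 4 were higher.

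All 24 ribosomal protein genes of the list were lower in the GV libraries, against 13.4% of all genes. With the correction 14 were lower (58.3%, against 8.09% of all genes), and 0 were higher in either fit. The median log2 difference was -0.393, against -0.0152 over all genes. Rpl11, a protein of the large subunit, measured 819.8 and 865.4 CPM in the CV libraries against 526.9 and 589.3 CPM in the GV libraries (log2 difference -0.59, SE 0.06, adjusted p = 0.000176; corrected -0.31). Rpl23, another large-subunit protein, was at -0.51, with a corrected difference of -0.49. Rpl8 was at -0.39 and, with the correction, at -0.03 (adjusted p = 0.69). In the H contrast no gene of the list was called. Leaving out 1 V library at a time left 19 to 24 genes lower. Over all cytosolic ribosomal proteins, a list added after seeing the data, 79 of 82 were lower (96.3%), and 54 with the correction (65.9%).

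The called genes of the S-phase and mitotic lists were lower in the GV libraries. Orc4, on neither list, was higher, but did not pass with the correction (0.07, adjusted p = 0.532). Of 27 S-phase genes, 15 were lower and 0 higher (55.6% lower, against 13.4% of all genes). With the correction 16 were lower (59.3%, against 8.09% of all genes). Tyms, which makes thymidylate, measured 73.9 and 71.1 CPM in the CV libraries against 52.0 and 56.2 CPM in the GV libraries (log2 difference -0.42, SE 0.07, adjusted p = 0.00108; corrected -0.50). Mcm3, a subunit of the replicative helicase, was at -0.34. Of 25 mitotic genes, 9 were lower and 0 higher (36% lower), and 19 were lower with the correction (76%, against 8.09% of all genes). Plk1, a mitotic kinase, measured 84.3 and 81.3 CPM against 51.9 and 59.9 CPM (log2 difference -0.57, SE 0.08, adjusted p = 0.000455). Foxm1, a transcription factor of the mitotic programme, was at -0.47. Without CV1, 8 of the S-phase genes were lower, without CV2 10, and without GV1 9 were lower and 1 higher. Myc, a growth-promoting transcription factor, went from 82.7 and 80.6 CPM to 52.0 and 57.7 CPM (log2 difference -0.57, adjusted p = 0.000393), and Trp53, which encodes the tumour suppressor p53, was at -0.64 (adjusted p = 0.000217). A fit of nuclear protein-coding genes alone is given in the closing section. Beyond it, the part of library composition in these differences was not tested.

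Library composition moved with the groups. Small structural RNAs made up 5.07 and 4.23% of counts in CV1 and CV2 against 2 and 2.31% in GV1 and GV2. Histone transcripts made up 1.68% in both CV libraries against 0.828 and 1.09% in the GV libraries. Of 51 replication-dependent histone genes, 49 were lower (96.1%, against 13.4% of all genes), and 36 with the correction (70.6%, against 8.09%). H3c13, a histone H3 gene, was at -1.09. Mitochondrially encoded mRNAs made up 1.5 and 1.54% of counts in the CV libraries and 2.24 and 2.3% in the GV libraries. Of these 13 genes, 10 were higher (76.9%, against 11.6% of all genes), and 6 with the correction (46.2%, against 4.48%). Rn7sk, the small RNA that restrains the elongation factor P-TEFb, went from 6579 and 5384 CPM to 2346 and 3094 CPM (log2 difference -1.14, adjusted p = 0.000149). These lists were added after seeing the data.

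Stem cell markers gave calls in both directions, 3 higher and 7 lower of 24 (41.7% called, against 25.0% of all genes). With the correction 1 was higher and 2 lower (12.5%, against 12.6%). Fabp7, a lipid-binding protein of radial glia, was at -0.38 (adjusted p = 0.00346; corrected -0.47), and Sox9, a glial transcription factor, at 0.30 (corrected 0.27). Nes, the intermediate filament nestin, was at -0.28 and did not pass with the correction (-0.12, adjusted p = 0.0921). Of 16 neuroblast genes 4 were higher and 1 lower (25% and 6.25%, against 11.6% and 13.4% of all genes), and 2 and 0 with the correction. Sox4, a neuronal differentiation factor, was at 0.29 (corrected 0.31), and Nrxn3, a synaptic adhesion protein, at 0.76, with GV1 at 73.9 CPM and GV2 at 42.6 CPM, both above the 35.9 and 32.9 CPM of the CV libraries. Without CV2, 1 stem cell marker was higher and 3 lower, and 1 neuroblast gene was higher; without GV1, 4 stem cell markers were lower. No neuroblast gene was lower whichever V library was left out.

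The share called in the developmental pathway lists lay between 20% (Notch) and 29.4% (BMP), near the 25.0% of all genes. Wnt feedback genes had 4 of 15 lower and 0 higher (3 and 0 with the correction): Sfrp1, a secreted Wnt inhibitor, was at -0.80 and Axin2, a target and inhibitor of the pathway, at -0.39. Nkd1, a Wnt feedback gene, was at -0.49 in V and 0.48 in H, and the contrasts differed (adjusted p = 0.00513). Hedgehog genes had 3 of 11 lower (2 with the correction), among them Smo, the signal transducer, at -0.33. Notch genes had 1 of 20 higher and 3 lower, and BMP genes 4 of 17 higher and 1 lower; with the correction these became 1 and 0, and 0 and 0. Without CV2, 2 Wnt genes, 2 Hedgehog genes and 1 Notch gene were lower and no BMP gene was called. Without CV1 or GV2, 2 Hedgehog genes and 1 Notch gene were lower, without GV1 2 Notch genes were lower, and without GV1 or GV2 2 BMP genes were higher.

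Cholesterol synthesis genes were split, 9 higher and 6 lower of 24 (62.5% called, against 25.0% of all genes), and 3 and 1 with the correction (16.7%, against 12.6%). Insig1, which holds back the sterol regulator, was at 0.29 (corrected 0.23), and Idi1, an isoprenoid isomerase, at 0.42 (corrected 0.11, adjusted p = 0.233). Srebf1, a regulator of fatty acid synthesis, measured 70.1 and 66.6 CPM in the CV libraries against 34.3 and 40.9 CPM in the GV libraries (log2 difference -0.86, SE 0.10, adjusted p = 0.000208; corrected -0.65). Fasn, its fatty acid synthase target, was at -0.41 (corrected -0.19). Glycolysis genes had 8 of 22 lower and 2 higher (corrected 3 and 1), and oxidative phosphorylation genes 10 of 24 lower and 1 higher (corrected 3 and 4). The shares lower were 36.4% and 41.7%, against 13.4% of all genes. Without CV2, 3 glycolysis and 2 oxidative phosphorylation genes were lower, and 4 cholesterol genes were higher and 2 lower. Without GV1, 5 oxidative phosphorylation genes and 2 cholesterol genes were lower, and without CV1 5 glycolysis and 3 cholesterol genes were lower.

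Matrix and integrin genes were split as well, 6 higher and 7 lower of 27 (48.1% called, against 25.0% of all genes), and 3 and 3 with the correction (22.2%, against 12.6%). Itgav and Itgb8, integrin subunits that pair with each other, were at 0.35 and 0.39 (corrected 0.12 and 0.04, neither passing), and Fn1, fibronectin, was at -0.50 (corrected -0.39). Of 19 YAP and SRF targets, 1 was higher and 4 lower (26.3% called, against 25.0% of all genes), and 1 and 3 with the correction. In the H contrast 0 of them were higher and 9 lower, where 1.05% of all genes tested were lower. Actb, cytoplasmic actin, was at -0.26 in V, and Srf, the transcription factor itself, at -0.52. ERK feedback genes had 3 of 24 higher and 3 lower (25%, the share of all genes), and the same counts with the correction. Quiescence and cell cycle inhibitor genes had 6 of 20 higher and 2 lower (40%; corrected 2 and 2), and stress-response genes of the ATF4 list 1 of 21 higher and 6 lower (33.3%; corrected 0 and 2). Of the Zfp zinc finger genes, a list added after seeing the data, 115 of 361 were higher (31.9%) and 18 lower (4.99%). Over all genes these shares were 11.6% and 13.4%. With the correction 15 were higher and 10 lower (6.96% called, against 12.6% of all genes). The median transcript G+C content of the Zfp genes was 44.3%. Leaving out 1 V library at a time lowered most of these counts. Of the ATF4 list, 1 gene was lower without GV1, 2 without CV1 or CV2 and 3 without GV2, and 0 were higher without CV1. Of the matrix genes, 3 were lower without CV1, CV2 or GV2 and 4 without GV1, and 3 were higher without CV2. Quiescence genes had 3 higher without GV2, and 1 lower without CV2, GV1 or GV2. Of the ERK genes, 1 was higher without CV2, and no YAP or SRF target was higher whichever V library was left out. The Zfp genes had 63 higher and 6 lower without CV2, and 82 to 89 higher and 9 to 11 lower without any other.

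**Figure D4:**
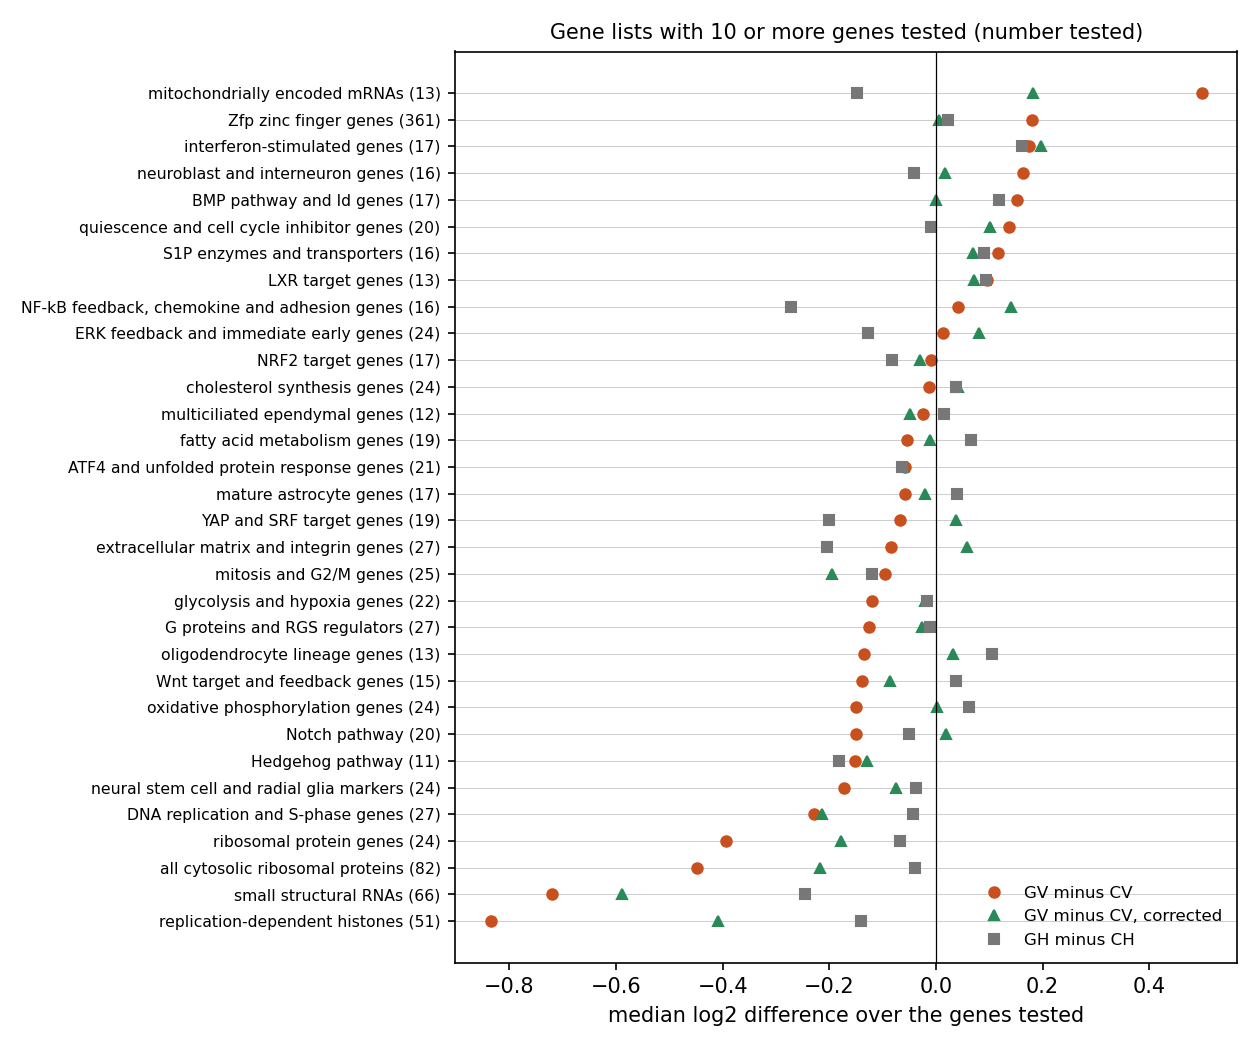
Median log2 difference of each list with 10 or more genes tested, for GV minus CV, the same after the correction, and GH minus CH. Histone, small RNA and ribosomal protein lists lie lowest in GV, and the mitochondrial list lies highest at 0.499.

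Markers of other cell types were checked as well. None of the tested microglia (3), endothelial (8), pericyte (4), meningeal (5) or choroid plexus (3) markers was called. With the correction 1 choroid plexus marker was lower, and no other marker of these lists was called. The summed level of the endothelial markers was 4.39 to 4.4 CPM in the CV libraries and 3.68 to 4.5 CPM in the GV libraries. For microglia markers it was 29.8 to 33.3 CPM in CV and 33.6 to 40.8 CPM in GV, although 8 of 15 were at 0 in every V library. Pericyte and smooth muscle markers summed to 60.7 to 69 and 53.6 to 66.3 CPM, and meningeal markers to 95.4 to 101 and 85.4 to 102 CPM. Choroid plexus markers summed to 7.55 to 9.53 and 5.37 to 7.62 CPM. Neuron markers had 2 of 9 higher and 1 lower (33.3% called, against 25.0% of all genes; corrected 1 and 0), with a summed level of 1080 to 1140 CPM in CV and 1310 to 1480 CPM in GV, mostly Map2. The part of these cells in the other differences was not tested.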

How the data were processed

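Total RNA of neural stem cells was sequenced after depletion of ribosomal RNA. The labels' protocols give a library kit that keeps strand. Tools listed in the submitters' processing notes are HISAT2 2.1.0, StringTie 2.1.3b, Trimmomatic and bcl2fastq 2.20.0, with GRCm38 (mm10) as the build. The deposited read counts per gene were used as the authors gave them; 16 columns of other per-sample values were not used.

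All 8 libraries entered 1 fit with the library code as its only factor (edgeR 4.0.16 in R 4.3.3, quasi-likelihood test, TMM factors, filterByExpr, Benjamini-Hochberg adjustment over all genes tested). DESeq2 1.42.0 served as an alternative. Residual degrees of freedom were 4 and the common biological coefficient of variation was 7.52%. IDs matched the RefSeq table for 99.79% of genes. Named genes were the S1P receptors, the 12 largest called differences in each direction with a mean of at least 2 CPM, no overlap between groups and no predicted name, up to 4 called members of each list, and genes within 1 Mb of S1pr1. Genes named beyond this rule (Gdf15, Depdc1a, Orc4, Zfp944, Scand1, H2ac12, H3c13, Rn7sk, Rpl8, Sox9, Sgpl1, Fn1, Tmed5) were chosen after their values were seen; 1 gene that the rule names is not reported here. Members and lists were chosen with earlier results of these data known. On simulated counts with 17279 genes, the test recovered 20% of 1.25-fold and 84% of 1.5-fold changes, and 7.28% of its calls were false. The simulation took its spread from the fit and held no trend on G+C content or length. These shares therefore do not measure how the test behaves under the trend in the V contrast.

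The correction removed lowess trends (span 0.3) on transcript G+C content, then length, as offsets. It was added after seeing the data and tried under 2 ways of matching genes to transcripts. The first, by symbol and longest transcript, left out most histone and mitochondrial genes, so matching by Entrez ID with protein-coding transcripts was used. Both are given in the closing section. On the same simulated counts, which held no such trend, 9.8% of its calls were false.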

Additional observations from a re-analysis of the deposited data

Results flagged for a closer look

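The genotype contrast differed between the V and H libraries for 1296 genes by the test of the difference itself (edgeR, adjusted p under 0.05), and 40 of the genes followed by name that were among them are given here. The values are the V difference minus the H difference on the log2 scale.

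Of the leading genes, this value was -2.03 for Snora73a, -1.42 for Rps12-ps13, -0.62 for Bc1, -0.42 for Anxa6, 1.46 for Dach2, 1.27 for Zfp992, 1.04 for Zfp991 and 0.63 for Tex15. Acta2, at 2.13, was lower in GH than in CH by more than in GV against CV. Cemip was at 0.66 and Ptgds at -0.65.

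Of the ribosomal protein genes, Rpl11 was at -0.51, Rpl23 at -0.48 and Rpsa at -0.33. Of the cell cycle and growth genes, Myc was at -0.55, Trp53 at -0.51, Cdc20 at -0.36, Foxm1 at -0.33 and Ccng1 at 0.43. Of the metabolic genes, Cox6a1 was at -0.52, Fasn at -0.48, Nr1h2 at -0.47, Shmt2 at -0.46, Sod1 at -0.45, Cox4i1 at -0.44, Atp5o at -0.43, Higd1a at -0.38, Cyc1 at -0.37, Asah1 at 0.33, Elovl5 at 0.35 and Slc7a11 at 0.46.

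Of the signalling, lineage and matrix genes, Nkd1 was at -0.98, Ier3 at -0.65, Olig1 at -0.44, Gad1 at -0.38, Olig2 at -0.25, Itgb8 at 0.37, Nfkbiz at 0.42, Itgav at 0.48 and Spred1 at 0.50. Without CV2, which leaves 1 CV library, the difference was called for far fewer genes. How these values themselves change without that library was not tested.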

How the results depend on the processing

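The count of 4408 genes called between GV and CV stayed within 1.5 times under the other size factors, DESeq2, both other filters, the fit of the V libraries alone and the replicate block (4079 genes). Which direction held more calls depended on the setting. The higher genes made up 46.5% in the main fit, 45.7% at a mean CPM of at least 1 and 46.8% with the block. Their share was 52.1% with DESeq2's size factors in edgeR, 51.8% with upper-quartile factors and 51.6% by DESeq2. It was 54.8% with no filter and 53.2% in the V libraries alone. Leaving out 1 V library gave 1950 to 3631 genes in all, 894 to 1693 higher and 1056 to 1938 lower. With the G+C and length correction the counts were 1991, 710 and 1281, and with its first matching by symbol 2203, 785 and 1418. A fit of nuclear protein-coding genes alone, 13739 tested, left out small structural and mitochondrial RNAs and kept histone and ribosomal protein genes. It was not planned. It called 4394 genes, 2179 higher and 2215 lower, and kept 3954 of the 4408 calls in the same direction. For the H contrast the count was 320, against 567 by DESeq2, 552 with no filter, 203 with the replicate block, 813 and 820 under the 2 corrections, and 201 to 415 without 1 V library. For the difference between contrasts it was 1296, against 2022 by DESeq2, 491 and 657 under the 2 corrections, and 64 to 1450 without 1 V library. S1pr1 passed the test with no filter on low counts (0.31, adjusted p = 0.0477), and ranged from 0.11 to 0.48 when 1 V library was left out. With the replicate block it was 0.29 (adjusted p = 0.0632). Same-numbered libraries did not deviate together (correlations from -0.053 to 0.056), so the numbers were not taken to pair the samples. Of 121 called genes followed by name, 68 kept their direction and call under the correction, 43 lost the call and 10 changed sign. Under the first matching 77 kept both and 11 changed sign. The sign changed for Cox6a1 (0.11, first matching 0.12), Cox4i1 (0.0508 and 0.0400), Olig1 (0.000306 and 0.00821), Aldoa (0.0214 and 0.0359), Olig2 (0.0744 and 0.0865), Etv1 (-0.122 and -0.0926), Bmpr2 (-0.0576 and -0.0461), Bmpr1a (-0.0320 and -0.0103), Slc7a11 (-0.0301 and -0.0130) and Ccng1 (-0.0204, with the matching adopted) and, under the first matching alone, Id3 (0.00987) and Hadhb (-0.100). The correction takes out trends with G+C content and length whatever their source, and the cause of the other shifts was not tested.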

Other observations

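Gm20716, a noncoding gene that overlaps Adnp and Dpm1, had 0 counts in both CV libraries and 25.4 and 61.4 CPM in the GV libraries, at least 1240-fold higher against a floor of 3 counts over the CV pair. The summed level of the 3 overlapping genes was 182.1 and 184.2 CPM in the CV libraries and 197.6 and 183.8 CPM in the GV libraries, so how reads were divided among them is uncertain. The 0 counts were found in the CV pair and not in the H libraries: Gm20716 measured 126.5 and 88.2 CPM in the CH libraries and 75.6 and 98.5 CPM in the GH libraries (log2 difference -0.30, adjusted p = 0.743 in edgeR's quasi-likelihood test). Gm36559 also had 0 counts in both CV libraries, against 4.35 and 4.21 CPM in the GV libraries, at least 124-fold higher. It measured 3.08 and 4.91 CPM in the CH libraries and 3.83 and 4.33 CPM in the GH libraries (log2 difference 0.03, adjusted p = 0.983). For both genes the CV pair stood apart from the other 6 libraries, control libraries included. Both genes were chosen after their values were seen.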
